A study of Mus musculus with 9 samples.

Results

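Of 41240 distinct tRNA-derived sequences read from mouse serum, 636 were 3′ fragments of nuclear tRNAs that carried the complete CCA tail, and they held 92455 reads. A sequence was taken when every alignment of it was on a mature nuclear tRNA, began inside the tRNA, had no mismatch, ended in CCA and reached the farthest end seen on that reference in any library. In a study of atherosclerosis, small RNA of serum was sequenced at week 20 in 3 groups with 3 libraries each. One group of mice ate normal diet, another high fat diet, and the remaining group had high fat diet plus SalB, read here as salvianolic acid B, a plant phenolic. The titles of the normal diet libraries carry the name C57, while no strain is named in the labels of the other groups. Diet and strain therefore cannot be told apart in comparisons with normal diet, while the SalB and high fat diet groups differ in the labels by SalB. Nothing in the labels says that replicates came from separate animals, so p-values cover only the spread between these samples, and that spread may be technical. The files hold reads on tRNA references only, so the serum label could not be checked against marker genes.

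A tRNA receives its CCA tail after transcription, from an enzyme that adds the bases one by one, and the amino acid is attached to the last A. A fragment with the complete tail therefore comes from the 3′ end of a tRNA whose end was finished. Fragments of this kind that begin in the T-loop, the hairpin loop nearest the 3′ end, are known as 3′ tRNA fragments and have been found bound to Argonaute proteins. The T-loop holds a pseudouridine at position 55 and, in many tRNAs, a 1-methyladenosine at position 58, a modified base that stops or misleads reverse transcriptase.

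Because all 636 fragments share one end, length alone fixes the start. Counted back from the last A at position 76, as tRNAs are conventionally numbered, a fragment of 22 bases begins at position 55, one of 18 bases at position 59 and one of 17 bases at position 60. The A at position 58 served as a check. It was found in 362 of 365 fragments of at least 19 bases, and the T-T-C at the start of the T-loop in 188 of 196 fragments of at least 23 bases. Selenocysteine tRNA, which has an extra base pair, gave 6 fragments for which this count is off. The sequences below show the start sites on the fragments the results turn on. Capitals mark the A of position 58, where the fragment holds it, and the CCA tail.
Gly-CCC/Gly-GCC, 22 bases: tcgAttcccggccaatgcaCCA
Gly-CCC/Gly-GCC, 18 bases: ttcccggccaatgcaCCA
Ala-CGC/Ala-TGC, 22 bases: tcgAtccccggcatctccaCCA
Ala-CGC/Ala-TGC, 18 bases: tccccggcatctccaCCA
Tyr-GTA, 22 bases: tcgAatccggctcgaaggaCCA
Tyr-GTA, 17 bases: tccggctcgaaggaCCA
Gln-CTG, 18 bases: atctcggtggaacctCCA
Gln-CTG, 17 bases: tctcggtggaacctCCA
Glu-TTC, 22 bases: tcgActcccggtgtgggaaCCA
Leu-AAG/Leu-TAG, 18 bases: atcccaccgctgccaCCA
Cys-GCA, 17 bases: tccgggtgccccctCCA
Ala-AGC, 18 bases: tccccagcatctccaCCA
Lys-CTT, 16 bases: cccacgttgggcgCCA
In a double name, Gly-CCC/Gly-GCC for example, the read fits tRNAs of both anticodons and was not split between them. The longer Ala-CGC/Ala-TGC fragment of 38 bases shows where the shorter ones begin, with capitals on positions 55, 59 and 60.
Ala-CGC/Ala-TGC, 38 bases: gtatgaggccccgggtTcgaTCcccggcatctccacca

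The 9 libraries held 28191 to 156333 reads on tRNA references. SalB replicate 2 stood apart from the other libraries. Of its tRNA reads 42.0% lay on the precursor of Leu-CAG-3-1, against 2.55% in SalB replicate 1 and 0.0573% in SalB replicate 3. Levels are given as normalised CPM, tRNA reads scaled to a common library size by trimmed means. This scaling bears on direction. With total counts in its place, the median log2 fold change of all 733 fragments tested moved by -0.93 for SalB against high fat diet. In serum RNA, fewer shedding cells and fewer fragments per cell cannot be told apart.

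Full-CCA fragments were a smaller part of the tRNA reads with SalB. They made up 26.5%, 23.4% and 24.4% of the reads in the normal diet libraries and 22.6%, 25.0% and 23.6% in the high fat diet libraries. In the SalB libraries they made up 11.2%, 5.96% and 10.7%. The means were 24.8 ± 1.53%, 23.7 ± 1.18% and 9.28 ± 2.89% (SD, n = 3 each). Every SalB library lay below every other library. Without the reads on the Leu-CAG-3-1 precursor, the SalB mean was 10.8 ± 0.622% (SD, n = 3). The share sums over all members and was given no test.

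A few fragments held most of the reads. The 12 most abundant held 52.6% of them, while 156 of the 636 fragments were read once and 137 were seen in all 9 libraries. Fragments came from 175 of the 217 nuclear mature tRNA references with any read. They fell into 56 sets of families, a family being 1 amino acid with 1 anticodon, and 141 fragments with 48.4% of the reads fitted more than 1 family.

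The start sites were few. Fragments of 22 bases, which begin at position 55, held 38.8% of the full-CCA reads. Those of 18 bases held 30.8%, those of 17 bases 19.4% and those of 16 bases 7.27%. Starts within the loop at positions 58 and 57, which give 19 and 20 bases, together held 1.07%. The 22-base share was 29.2%, 37.3% and 35.5% in the normal diet libraries, 36.7%, 42.5% and 44.4% in the high fat diet libraries, and 51.1%, 38.3% and 52.8% in the SalB libraries. The groups overlapped, with SalB replicate 2 inside the high fat diet range and the other SalB libraries above it. The 18-base share ran the other way, at 39.0%, 34.6% and 32.0%, then 32.5%, 28.7% and 26.9%, then 21.9%, 28.97% and 23.2%. Here too SalB replicate 2 lay inside the high fat diet range.

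**Figure D1:**
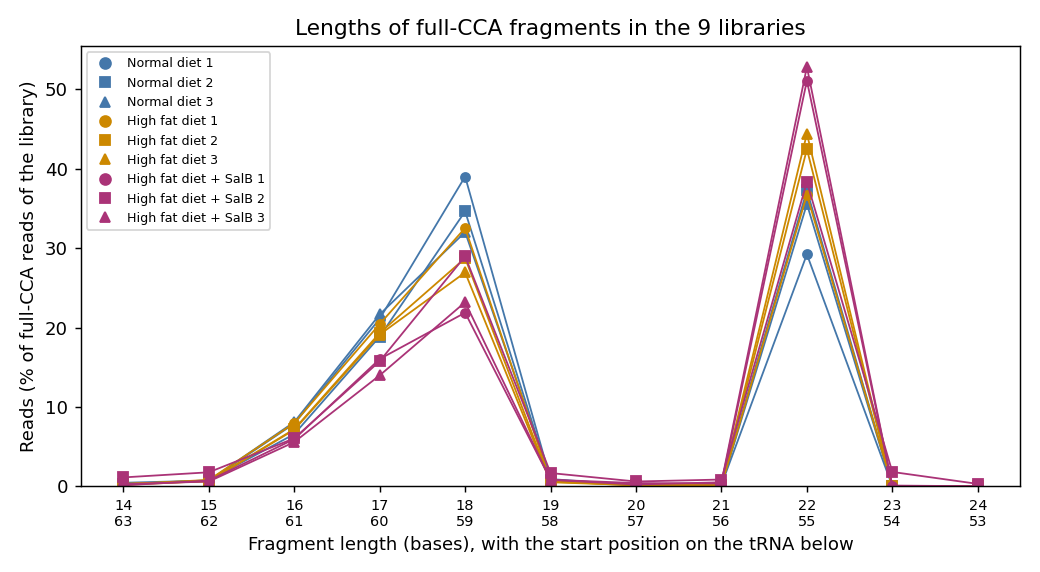
Share of each library's full-CCA reads (y axis, percent) by fragment length in bases (x axis, start position on the tRNA beneath), for lengths 14 to 24. Each line is 1 library. All libraries peak at 22 and 18 bases, and the 18-base peak of SalB replicates 1 and 3 is lower than in the other 7 libraries.

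The bases at the start were narrow too, but with a shared end they largely follow from the positions. The A of position 58, for example, stood in 362 of 365 fragments of at least 19 bases. All 77 fragments of 22 bases began with T, and 76 of them with TC. Among reads of 18 bases, 99.2% followed an A on the tRNA, the A of position 58. Among reads of 17 bases, 64.4% followed an A and 70.5% began with T. All reads of 16 bases began with C. Read as a seed, bases 2 to 8, the 22-base fragments shared few heptamers: CGATTCC stood in 8 fragments of 8 sets of families with 40.2% of the 22-base reads, CGATCCC in 17.8%, CGAATCC in 15.2% and CGACTCC in 11.5%. The seed CGATTCC is that of the Gly-CCC/Gly-GCC fragment printed above, and CGACTCC that of the Glu-TTC fragment. These heptamers are part of the conserved T-loop and T-stem.

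Annotated mouse miRNAs overlap abundant members in sequence. The 22-base Thr-AGT fragment, with 1238 reads, shares a run of 20 bases with mmu-miR-5100, of which 19 lie before the tail (RefSeq, GRCm38.p6, chromosome 11, 60728698 to 60728718, plus strand). The 18-base Leu-CAA/Leu-CAG fragment, with 1527 reads, shares 16 with mmu-miR-3963, of which 15 lie before the tail (chromosome 3, 151023839 to 151023857, minus strand). The miRNA sequences, from RefSeq, are shown with the fragments. Neither of the 2 miRNAs holds a whole fragment, since neither has the complete CCA tail.
mmu-miR-5100: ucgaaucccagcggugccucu
Thr-AGT, 22 bases: tcgAatcccagcggtgcctCCA
mmu-miR-3963: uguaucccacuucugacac
Leu-CAA/Leu-CAG, 18 bases: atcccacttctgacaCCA

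Families differed widely in where their fragments began. The start site ratio compares reads of 19 to 28 bases, which hold position 58, with reads of 14 to 18 bases, which begin after it, on a log2 scale within each library. It could be formed for 24 sets of families with enough reads on both sides. Cys-GCA, a cysteine tRNA, lay at the short end, with log2 ratios of -5.44, -5.66 and -6.05 in the normal diet libraries and 1.91% of its reads holding position 58. Leu-AAG/Leu-TAG, leucine tRNAs, had 3.23% of reads holding it, Ala-AGC/Ala-TGC 5.36% and Gln-CTG 11.3%. At the long end, 97.5% of the Glu-TTC reads held position 58, 94.3% of His-GTG, 94.2% of Gly-CCC/Gly-GCC and 91.5% of Gly-TCC. Ala-AGC, at 52.8%, and Ala-CGC/Ala-TGC, at 42.1%, gave both kinds. The plot of start site ratios gives every library.

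**Figure D2:**
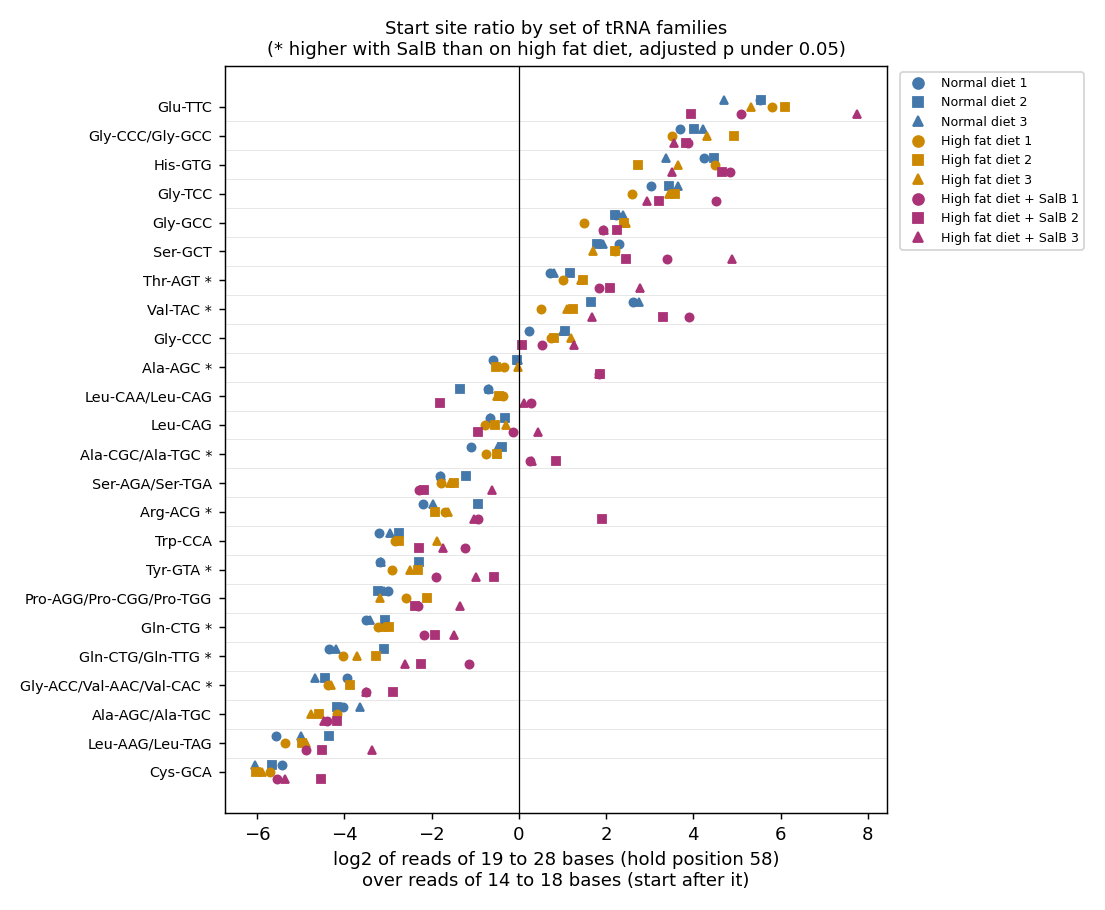
Start site ratio (x axis, log2 of reads of 19 to 28 bases over reads of 14 to 18 bases) of 24 sets of tRNA families (y axis, ordered by the high fat diet mean). Each point is 1 library. The 9 sets with an asterisk were higher with SalB than on high fat diet, and Cys-GCA lies at the bottom and Glu-TTC at the top.

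A short read fits more tRNAs than a longer one, so a family set can hold short reads of tRNAs whose long reads fall in another set. Ala-AGC/Ala-TGC is such a set, with log2 ratios of -4.04, -4.18 and -3.65 in the normal diet libraries. Over all fragments with its last 14 bases, cggcacctccacca, the log2 ratios were -0.57, -0.13 and -0.11 in the same libraries. Its place near the short end thus rests on how reads were grouped. By the last 14 bases, Cys-GCA stood at -5.43, -5.65 and -6.15 and Leu-AAG/Leu-TAG at -5.64, -4.27 and -4.96, close to their values as sets. Glu-TTC, on its end cggtgtgggaacca, stood at 5.42, 5.22 and 4.71, also close. Ala-AGC divided, with -3.42, -2.59 and -3.39 on the end cgcatcctccacca and 0.33, 0.56 and 1.39 on the end cagcacctccacca. The order as a whole was not tested for this. The ratio was also formed over fragments with the same last 14 bases, and those results are given with the comparison below.

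Just outside the rule lie 22-base reads of the same ends that match but for 1 base. Because members may have no mismatch, the base at position 58 helped to choose them, so the shares below describe reads the rule left out and are not independent of it. Of 15510 such reads with a mismatch, 10156 had the substitution A58T, which gives the reference base, its tRNA position and the base read. Of all 22-base reads, 23.8%, 36.4% and 22.01% in the normal diet libraries carried another base at position 58, and 23.8%, 26.0% and 19.04% in the high fat diet libraries. In the SalB libraries 5.44%, 7.23% and 9.37% did. The means were 27.4 ± 7.82%, 22.9 ± 3.54% and 7.35 ± 1.97% (SD, n = 3 each), and the SalB libraries lay below all others.

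Few families carried these mismatches. Over all libraries the share was 69.9% in Gly-CCC, 45.7% in Gly-GCC, 35.2% in Gly-CCC/Gly-GCC, 32.4% in Tyr-GTA and 21.3% in Gly-TCC, and at most 7.04% in the other 14 sets with at least 200 reads. With a single pair of bases taken per set, the A of position 58 is followed by TT in the 5 leading sets and by other bases in the 14 below. The split is not clean by fragment. Tyr-GTA also has fragments with other bases there, among them the printed fragment, and Ala-CGC/Ala-TGC, among the 14, also has a fragment with TT. In Gly-CCC/Gly-GCC the share was 41.9%, 40.3% and 35.8% on high fat diet and 10.7%, 11.3% and 17.2% with SalB. In Gly-TCC it was 27.5%, 33.6% and 19.9%, then 3.36%, 5.96% and 8.24%. In Tyr-GTA it was 38.4%, 37.5% and 29.6%, then 7.69%, 24.1% and 18.5%. In each of these sets every SalB library lay below every high fat diet library, so the lower share was seen within families as well as over their sum.

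**Figure D3:**
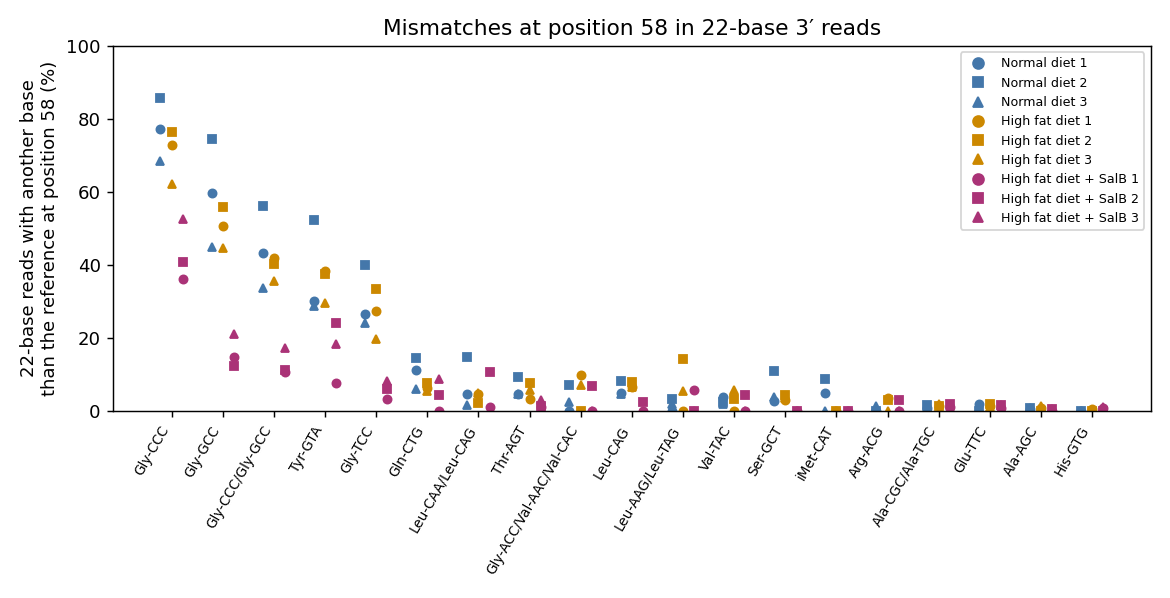
Share of 22-base reads with another base than the reference at position 58 (y axis, percent) in 19 sets of tRNA families (x axis). Each point is 1 library. Gly-CCC, Gly-GCC, Gly-CCC/Gly-GCC, Tyr-GTA and Gly-TCC stand high, and the remaining sets, Gly-ACC/Val-AAC/Val-CAC among them, are at 7.04% or below over all libraries.

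The first comparison asks which full-CCA fragments differ between high fat and normal diet. Only 100 of the 636 fragments were abundant enough to be tested, among 733 fragments of all kinds. None passed limma-voom at a Benjamini-Hochberg adjusted p under 0.05, where 0% of all fragments tested passed. At an unadjusted p under 0.05 there were 7, and limma on log2 values also called 0. Groups did not overlap for 25 of the 100 (25%), against 23.9% of all fragments tested. The Leu-AAG/Leu-TAG fragment of 18 bases stood at 16968, 13375 and 14086 normalised CPM on normal diet and at 8434, 9096 and 7385 on high fat diet. These groups did not overlap, but the difference missed the threshold (log2 fold change -0.84 by limma-voom, adjusted p = 0.298). The Glu-TTC fragment of 22 bases stood at 5224, 4702 and 5065, then 6376, 8633 and 12896, again with no overlap (log2 fold change 0.83 by limma-voom, adjusted p = 0.391). By family, 0 of 34 sums passed (0% of 218 sums of all origins), with 4 at an unadjusted p under 0.05. By length, 0 of 14 passed (0% of 133), with 2 at an unadjusted p under 0.05. Of the start site ratios 0 of 24 passed (0%), with 1 at an unadjusted p under 0.05. That was Val-TAC, at 2.63, 1.65 and 2.76 on normal diet and 0.52, 1.24 and 1.11 on high fat diet (limma log2 difference -1.49, SE 0.48, adjusted p = 0.261).

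SalB against high fat diet asks which fragments differ with the treatment. Of the 100 full-CCA fragments tested, 29 fell and 0 rose (limma-voom, adjusted p under 0.05). Over all 733 fragments, 15% fell and 18.4% rose. The members' median log2 fold change was -0.65, against -0.07 over all fragments tested, and 81 of the 100 lay below 0. Groups did not overlap for 42 fragments that were lower and 3 that were higher with SalB, against 23.7% and 26.5% of all fragments. The same 18 fragments of the 29 were called whichever single library was left out. With total counts as the scaling, 65 fell.

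The short fragments made up most of this group. Of 40 fragments of 14 to 17 bases 17 fell, and the median log2 fold change was -0.93. Of 27 fragments of 18 bases 9 fell, with a median of -0.69. None of the 3 of 19 and 20 bases was called. Of 30 fragments of 21 to 23 bases 3 fell, with a median of -0.30. These values hold for exact reads. Of all 22-base reads, a mean of 22.9% on high fat diet and 7.35% with SalB were left out for another base at position 58. Fragments of 14 to 18 bases do not hold that position. How far this bears on the difference between lengths was not tested. Fragments of 24 bases or more were too rare to be tested one by one.

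**Figure D4:**
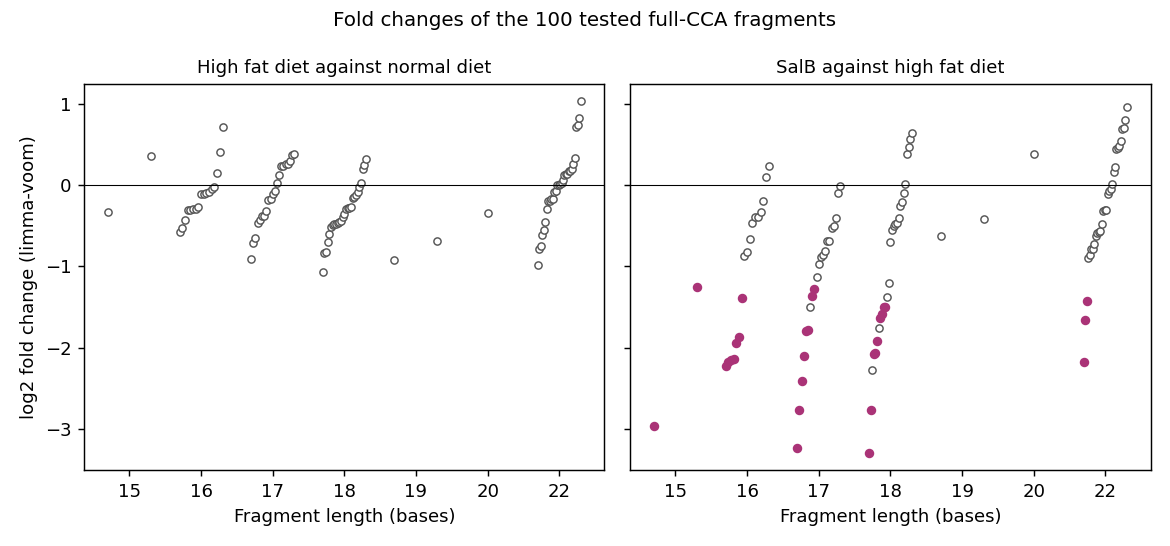
log2 fold change from limma-voom (y axis) of the 100 tested fragments by length in bases (x axis), for high fat diet against normal diet and for SalB against high fat diet. Each point is 1 fragment, counted from exact reads only, and filled points passed at an adjusted p under 0.05. Filled points appear only on the SalB side, all below 0, and 3 of them are 22 bases long.

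The Ala-CGC/Ala-TGC pair printed above shows the 2 starts on one tRNA end. Its 18-base fragment stood at 14285, 12891 and 12242 normalised CPM on high fat diet and at 3921, 3236 and 6197 with SalB. All SalB libraries were lower, and it fell (log2 fold change -1.63 by limma-voom, SE 0.30, adjusted p = 0.00268). Its 22-base fragment stood at 9805, 10777 and 10114, then 5719, 6370 and 8885. These groups did not overlap either, and the difference missed the threshold (log2 fold change -0.58 by limma-voom, SE 0.25, adjusted p = 0.0935). The most abundant fragment, the 22-base one of Gly-CCC/Gly-GCC, stood at 19844, 29838 and 26575, then 20388, 15230 and 15415, with overlap (log2 fold change -0.57 by limma-voom, adjusted p = 0.138). This overlap and fold change hold for exact reads. Of the set's 22-base reads, 41.9%, 40.3% and 35.8% on high fat diet were left out for another base at the capital A of the T-loop. With SalB 10.7%, 11.3% and 17.2% were. The fragment's level with those reads counted in was not tested. Ala-AGC gave several fragments of 22 bases. The most abundant, tcaAtccccggcacctccaCCA, was at 4888, 3824 and 4820, then 5737, 6285 and 6734. It lay above in all SalB libraries without passing (log2 fold change 0.46 by limma-voom, adjusted p = 0.154), and with total counts this value was -0.38. Another, tcgAtccccagcatctccaCCA, was at 3006, 2491 and 2419, then 1761, 1050.3 and 1946. It lay below in all SalB libraries, again without passing (log2 fold change -0.78 by limma-voom, SE 0.31, adjusted p = 0.0736).

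Among the fragments called, the 18-base Ala-AGC fragment tccccagcatctccaCCA, the shorter form of the second of these, had the largest fold change of those whose groups did not overlap. It stood at 6376, 5157 and 4275 normalised CPM on high fat diet and at 635, 305 and 768 with SalB (log2 fold change -3.29 by limma-voom, SE 0.37, adjusted p = 0.000156). The 17-base Tyr-GTA fragment stood at 7106, 5736 and 5875, then 381, 2321 and 282. It fell (log2 fold change -3.24 by limma-voom, SE 0.59, adjusted p = 0.00268), and SalB replicate 2 lay nearer the high fat diet level than the other SalB libraries. The 17-base Gln-CTG fragment stood at 7704, 8082 and 7822, then 3050.0, 3930.2 and 2791. The groups were well apart (log2 fold change -1.28 by limma-voom, SE 0.27, adjusted p = 0.00612). The 16-base Lys-CTT fragment stood at 1036, 927 and 946, then 254, 169 and 179 (log2 fold change -2.23 by limma-voom, SE 0.40, adjusted p = 0.00243).

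Longer fragments were among those that fell as well. The 22-base Glu-TTC fragment stood at 6376, 8633 and 12896 on high fat diet and at 5828, 2677 and 2279 with SalB (log2 fold change -1.42 by limma-voom, SE 0.38, adjusted p = 0.0150). Its groups came close at SalB replicate 1, and the call was lost without high fat diet replicate 3, SalB replicate 2 or SalB replicate 3, where the adjusted p reached 0.0609. Of the 22-base Tyr-GTA fragments tested, the printed one stood at 788, 1217 and 946, then 54.5, 609.9 and 230.4 (log2 fold change -2.18 by limma-voom, SE 0.63, adjusted p = 0.0219). Without SalB replicate 1 its limma-voom adjusted p was 0.0616. The other, tcgAttccggctcgaaggaCCA, stood at 832, 753 and 837, then 145, 2609 and 333. SalB replicate 2 lay above every high fat diet library and the other SalB libraries below, and the fragment was not called (log2 fold change -0.63 by limma-voom, SE 0.78, adjusted p = 0.543).

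**Figure D5:**
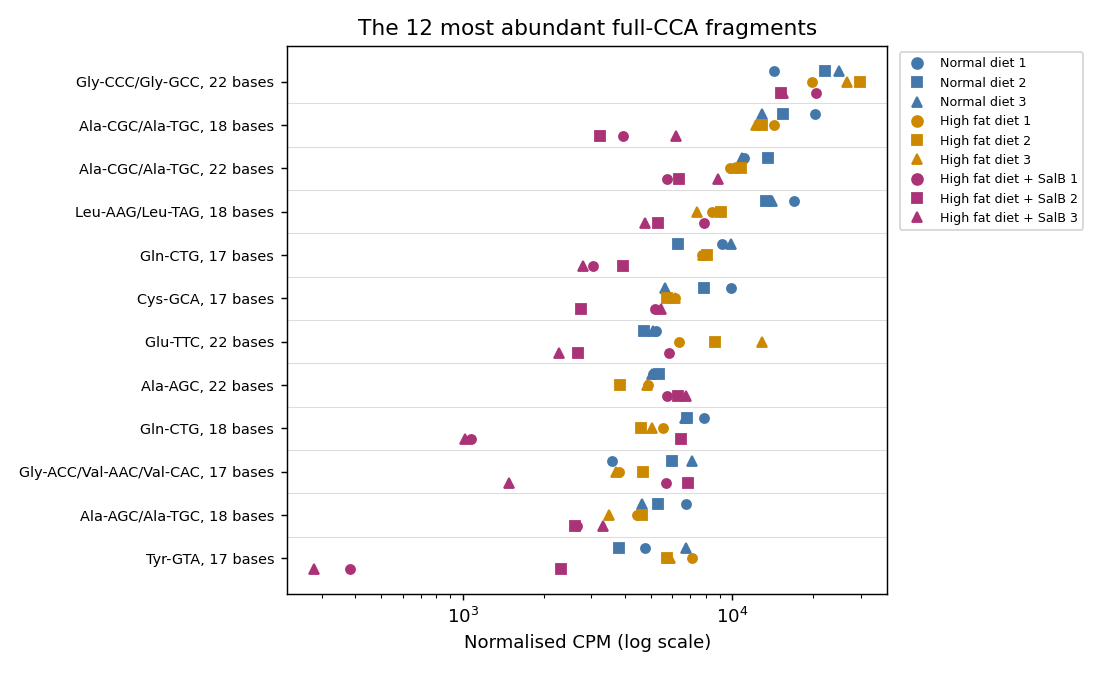
Normalised CPM (x axis, log scale) of the 12 most abundant full-CCA fragments (y axis, family and length). Each point is 1 library, with the groups in 3 rows per fragment. The SalB points of the 18-base Ala-CGC/Ala-TGC and 17-base Gln-CTG and Tyr-GTA fragments lie to the left of the others, and SalB replicate 2 stands apart for the 18-base Gln-CTG fragment.

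For several 18-base fragments the SalB libraries did not move together. The 18-base Gln-CTG fragment stood at 5559, 4606 and 5020.4 on high fat diet and at 1071, 6454 and 1024 with SalB. SalB replicate 2 was above the whole high fat diet group and the others far below it, and the fragment was not called (log2 fold change -1.38 by limma-voom, SE 0.55, adjusted p = 0.0748). The 18-base Leu-CAA/Leu-CAG fragment stood at 1897, 2520.3 and 2146, then 980.4, 9063 and 691, with the same library high. The 18-base Pro fragment, shared by the 3 proline anticodons, stood at 700.4, 1709 and 1401, then 127, 1254 and 205. Whether the Leu-CAG-3-1 precursor reads of SalB replicate 2 bear on these levels was not tested.

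By family, 10 of 34 sums fell with SalB and 1 rose (limma-voom, adjusted p under 0.05), against 14.2% and 16.1% of the 218 sums of all origins. Calls numbered 4, 5 and 6 without high fat diet replicate 3, 2 or 1, and 7 without normal diet replicate 1. When the factors of the fragment table were used, 8 fell and 1 rose, and the calls of Arg-ACG and Lys-TTT were lost. Tyr-GTA, a tyrosine tRNA, fell most, from 15095, 12249.9 and 13033 normalised CPM to 1228, 7434 and 1799.6 (log2 fold change -2.42 by limma-voom, SE 0.51, adjusted p = 0.00698). Phe-GAA/Ser-GGA, Lys-CTT, Glu-TTC, Gln-CTG and Ala-CGC/Ala-TGC followed, with log2 fold changes of -2.13, -1.47, -1.43, -1.26 and -1.23. The calls of Phe-GAA/Ser-GGA, Glu-TTC and Ala-CGC/Ala-TGC were each lost when 1 library was left out, among them high fat diet replicate 3 for all of these, with limma-voom adjusted p up to 0.0970. Thr-AGT, Lys-TTT, Arg-ACG and Ala-AGC fell by 1.19, 1.16, 0.97 and 0.80. Not called were, among others, Gly-CCC/Gly-GCC (-0.68), Cys-GCA (-0.57), Gly-TCC (-0.01), His-GTG (0.32) and Ser-GCT (0.53). These sums hold exact reads only. For Gly-CCC/Gly-GCC and Gly-TCC, the share left out for a T-loop mismatch, given above, was higher on high fat diet than with SalB.

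Phe-GAA, of phenylalanine tRNA, was the sum that rose, and it holds only reads that fit no other family. It went from 147, 199.9 and 175 normalised CPM to 838, 579 and 599.9 (log2 fold change 1.91 by limma-voom, SE 0.40, adjusted p = 0.00698). With total counts its limma-voom adjusted p was 0.0575. In the SalB libraries, but not in the others, most of it was 1 long fragment of 39 bases that reaches back to the anticodon arm.
Phe-GAA, 39 bases: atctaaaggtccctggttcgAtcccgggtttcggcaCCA
It was read 3, 2 and 5 times on normal diet, 1, 0 and 1 times on high fat diet, and 26, 28 and 19 times with SalB. After scaling, 73 reads against 2 gave a ratio of 37.7 (95% exact interval 10.1 to 317, counting error only). Its short counterpart, the 17-base Phe-GAA/Ser-GGA fragment, stood at 803, 869 and 873 normalised CPM on high fat diet and fell to 381, 50.8 and 205 with SalB (log2 fold change -2.41 by limma-voom, SE 0.56, adjusted p = 0.00833).

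Sums by family and by length were each scaled on their own table, so their levels are not on the scale of the single fragments. By length, 5 of 14 sums fell and 2 rose (limma-voom, adjusted p under 0.05), against 17.3% and 15% of the 133 sums of all origins. Without high fat diet replicate 1 or 3, or SalB replicate 1 or 3, 4 were called. The log2 fold changes were -1.84 for 17 bases, -1.83 for 16, -1.73 for 18, -1.31 for 22 and -1.07 for 15. The 22-base sum stood at 82437, 103837 and 109229 normalised CPM on high fat diet and at 44738, 31505.5 and 44942.5 with SalB (limma-voom adjusted p = 0.00123). The size of these values rests on the scaling. With the scaling factors of the fragment table, an alternative added after the data were seen, 3 of the 14 sums fell and 4 rose. The log2 fold changes were then -0.91 for 17 bases, -0.88 for 16 and -0.80 for 18, which were still called, and -0.36 for 22 bases (limma-voom adjusted p = 0.0714) and -0.13 for 15 bases, which were not. The sums that rose were small. That of 30 bases had a log2 fold change of 2.02 (limma-voom adjusted p = 0.0148), and that of 39 bases one of 1.02 (limma-voom adjusted p = 0.0450), against 2.93 and 1.97 with the factors of the fragment table. The call at 39 bases and that at 15 bases were lost under many settings, and the call at 30 bases without high fat diet replicate 1 or 3 (limma-voom adjusted p up to 0.0737).

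Fragments of 29 to 40 bases, which reach back past the T-stem, took 0.407%, 0.512% and 0.505% of the full-CCA reads on high fat diet and 2.46%, 2.19% and 1.96% with SalB. On normal diet they took 0.562%, 0.453% and 0.272%. The SalB libraries lay above all others in this share, whose denominator, the full-CCA reads, was itself a smaller part of the tRNA reads with SalB. In CPM of all tRNA reads, without the trimmed-mean scaling, the same fragments stood at 1488, 1063 and 665 in the normal diet libraries, at 919, 1277 and 1193 in those of high fat diet and at 2763, 1305 and 2093 in those of SalB. On this scale SalB replicate 2 lay below normal diet replicate 1 and close above high fat diet replicate 2. Its denominator includes the Leu-CAG-3-1 precursor reads, 42.0% of the tRNA reads of that library, which lower its CPM. The CPM without those reads was not calculated. One of the fragments, the 38-base Trp-CCA fragment, had 0 reads in the normal and high fat diet libraries and 9, 5 and 3 with SalB, at least 5.85-fold higher at a floor of 3 reads over the high fat diet group. The 40-base Asp-GTC fragment went otherwise, with 9, 2 and 3 reads on high fat diet and 2, 8 and 1 with SalB. Reads over 40 bases are not in the files, so fragments that begin further back were not measured.
Trp-CCA, 38 bases: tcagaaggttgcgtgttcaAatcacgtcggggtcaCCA

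The start site ratio does not depend on scaling between libraries. Of 24 sets of families 9 (37.5%) had a higher ratio with SalB than on high fat diet and 0 a lower one (limma, adjusted p under 0.05), and for 12 (50%) the groups did not overlap, each with SalB above. Ala-AGC stood at -0.33, -0.53 and -0.01 on high fat diet and at 1.85, 1.87 and 1.84 with SalB, a difference of 2.13 (limma SE 0.22, adjusted p = 3.87e-05). This set mixes alanine tRNAs of several 3′ ends, and the 18-base form of its most abundant 22-base fragment also fits Ala-TGC and so is counted elsewhere. Ala-CGC/Ala-TGC, the pair printed above, stood at -0.76, -0.51 and -0.51, then 0.26, 0.85 and 0.30, a difference of 1.08 (limma SE 0.24, adjusted p = 0.00662). Gln-CTG stood at -3.23, -2.97 and -3.09, then -2.17, -1.92 and -1.48, a difference of 1.24 (limma SE 0.18, adjusted p = 0.000250). With 21 to 23 bases over 18 bases the Gln-CTG difference was 0.57 and no longer called (limma adjusted p = 0.376).

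Tyr-GTA stood at -2.90, -2.32 and -2.49, then -1.90, -0.56 and -0.98, a difference of 1.95 (limma SE 0.28, adjusted p = 0.000250). Without SalB replicate 2 this limma adjusted p was 0.119. Arg-ACG stood at -1.69, -1.92 and -1.63, then -0.94, 1.91 and -1.02. SalB replicate 2 was alone above 0 there, and the difference of 2.35 (limma adjusted p = 0.0238) was 0.75 without it (limma adjusted p = 0.253). The Arg-ACG call was also lost without high fat diet replicate 1, 2 or 3. The differences of Val-TAC (1.97), Gln-CTG/Gln-TTG (1.62), Gly-ACC/Val-AAC/Val-CAC (1.09) and Thr-AGT (0.96) had limma adjusted p from 0.0338 to 0.0385, and those of Val-TAC and Gln-CTG/Gln-TTG were lost when any of several libraries was left out. Families not called included Gly-CCC/Gly-GCC (-0.21), Gly-GCC (0.05), Ala-AGC/Ala-TGC (0.08) and Glu-TTC (-1.04). These values hold for exact reads. In Gly-CCC/Gly-GCC, Gly-GCC and Tyr-GTA, a larger share of long reads was left out for a T-loop mismatch on high fat diet than with SalB. With the reads of 1 mismatch counted in, the higher ratio of Tyr-GTA was still called.

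Over fragments with the same last 14 bases, 14 of 29 ratios were called higher with SalB than on high fat diet (limma, adjusted p under 0.05). This grouping was an alternative added after the data were seen. On the alanine end cggcacctccacca, which brings the 22-base Ala-AGC fragment and its 18-base form together, the ratio stood at -0.10, -0.47 and 0.12 on high fat diet and at 0.73, 1.04 and 0.71 with SalB, a difference of 0.94 (limma SE 0.19, adjusted p = 0.00238). On the alanine end cagcatctccacca it stood at -1.13, -1.02 and -0.81, then 1.38, 1.77 and 1.10, a difference of 2.38 (limma SE 0.35, adjusted p = 0.000213). On both ends all SalB libraries lay above all high fat diet libraries. On the end cggccaatgcacca of Gly-CCC/Gly-GCC the difference in exact reads was -0.21 (limma adjusted p = 0.612). Without SalB replicate 2 or high fat diet replicate 1, 3 of the family ratios were called, without high fat diet replicate 2 or 3 there were 4, and with only 21 to 23 bases over 18 bases 4. With the reads of 1 mismatch counted in, the Gly-CCC ratio fell by 1.24 with SalB (limma adjusted p = 0.0229), where the exact reads gave -0.36 (limma adjusted p = 0.447).

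SalB against normal diet uses the same SalB libraries, and its controls are those of the diet comparison. Of the 100 fragments 37 fell and 0 rose (limma-voom, adjusted p under 0.05), against 16.8% and 20.9% of all fragments. The 17-base Ala-AGC fragment below stood at 2649.5, 1971 and 2346 normalised CPM on normal diet, at 1182, 1477 and 1073 on high fat diet and at 236, 373 and 230.4 with SalB. The groups were in descending order without overlap (log2 fold change of SalB against normal diet -3.01 by limma-voom, adjusted p = 8.45e-05). For high fat against normal diet its limma-voom adjusted p was 0.298. The 18-base Leu-AAG/Leu-TAG fragment fell to 7861, 5286 and 4737 with SalB from the normal diet level given above (log2 fold change -1.34 by limma-voom, adjusted p = 0.00288), and SalB and high fat diet overlapped.
Ala-AGC, 17 bases: gcccgcatcctccaCCA

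Lists of 2 kinds, set by name, were described by their counts. Primer tRNAs, whose 3′ ends prime reverse transcription of mouse LTR retroelements (Lys-TTT, Phe-GAA and the proline tRNAs), had 6 fragments tested. With SalB against high fat diet 2 fell, at a list median of -1.33, where 29 of the 100 full-CCA fragments and 15% of all fragments fell. The 16-base Lys-TTT fragment was one, at 642, 666 and 946 normalised CPM and then 163, 169 and 128 (log2 fold change -2.17 by limma-voom, SE 0.38, adjusted p = 0.00231). The list of families whose 3′ fragments have been studied before (Leu-CAG, Gly-GCC and Lys-TTT) had 15 tested, of which 1 fell, the same Lys-TTT fragment, at a median of -0.19. The 22-base Leu-CAG fragment below stood at 409, 666 and 509, then 817, 1288 and 538 (log2 fold change 0.71 by limma-voom, adjusted p = 0.161).
Lys-TTT, 16 bases: ccctgttcgggcgCCA
Leu-CAG, 22 bases: tcgAatcccactcctgacaCCA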

How the data were processed

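RNA was taken from serum with TRIzol, and adapters were added, cDNA made and libraries read on an Illumina NextSeq 500, per the labels' protocols. The submitters' processing notes name mm10 as build and FastQC, cutadapt, Bowtie and edgeR as tools, without roles or versions. The authors deposited 1 alignment list per library, with the read count of each distinct sequence inside its name, for reads of 14 to 40 bases with at most 1 mismatch. Each read was counted once. Library sizes were all tRNA reads (28191 to 156333). Sequences at or above 10 reads at the median depth (44415) in 3 or more libraries, and with a total of at least 15 reads, were tested: 733 fragments, and likewise sums by family and origin and by origin and length. limma-voom (limma 3.58.1, R 4.3.3) was fitted once over all 9 libraries with trimmed-mean scaling on each table by itself, two-sided, with Benjamini-Hochberg adjustment over each whole table. Start site ratios used limma on log2 ratios with 0.5 added to each count, weighted by counting variance, for sets with at least 5 reads on each side on average. The procedure was also run on simulated counts with the same spread in every library, so that run cannot speak to a library that stands apart, as SalB replicate 2 does. Named were the 12 most abundant fragments, up to 8 called per comparison and direction without overlap (otherwise the 3 smallest p), up to 6 called family sums and ratios, and the most abundant fragment of each listed family. The 38-base, 39-base and 40-base fragments were chosen after their values were seen. Members and lists were chosen with earlier results of these data known. Positions were counted on the tRNA references, and no genome was used.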

Additional observations from a re-analysis of the deposited data

How the results depend on the processing

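Scaling and the filter moved the counts of called fragments most. For SalB against high fat diet, 65 fragments were called with total counts and 54 without a filter. For SalB against normal diet the counts were 69 and 67, and for high fat against normal diet 1 without a filter. With total counts 20 family sums were called for SalB against high fat diet, and with only the libraries compared 1 for high fat against normal diet. Leaving out 1 library at a time gave 4 to 13 family sums, 4 to 10 length sums and 3 to 9 ratios for SalB against high fat diet. Ratios of 21 to 23 over 18 bases gave 4 calls, and sets by the last 14 bases 14. The cause was not tested.

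Shares moved with their denominator. Without references over 10% of a library, the full-CCA share was 29.9%, 27.6% and 14.6% on normal diet, high fat diet and SalB, the 18-base share 39.4%, 34.3% and 28.7%, and the share of 21 to 23 bases 26.8%, 32.2% and 40.7%. With reads of 1 mismatch included, the full-CCA share was 32.4% and 31.6% on normal and high fat diet, the share of 21 to 23 bases 41.2% and 47.2% (with SalB 11.2% and 49.7%, where SalB replicate 2, at 42.4%, lay below every high fat diet library), and the complete tail share 82.0%, 84.8% and 79.1% in the 3 groups. With reads of at least 16 bases the full-CCA share was 27.8% and 27.5% on normal and high fat diet and 10.4% with SalB.

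Some uncalled values changed sign. With total counts, SalB against high fat diet gave -0.38 for the 22-base Ala-AGC fragment, -0.062 for the 22-base Ser-GCT fragment and -0.16 for the 22-base Leu-CAG fragment. SalB against normal diet gave -0.13 for the 18-base Gly-CCC/Gly-GCC fragment, -0.29 for Ser-GCT and -0.43 for a 22-base Ala-AGC fragment. Leaving out 1 library at a time for SalB against high fat diet, the 17-base Gly-ACC/Val-AAC/Val-CAC fragment ran from -0.40 to 0.71 (without SalB replicate 2 and 3), the 18-base Leu-CAA/Leu-CAG fragment from -1.33 to 0.57 (the same libraries; 0.31 without SalB replicate 1) and the Leu-CAA/Leu-CAG ratio from -1.21 to 0.67 (without SalB replicate 1 and 2). For high fat against normal diet, the 37-base sum ran from -0.16 to 0.57 (without normal diet replicate 3 and 1) and the Gly-GCC ratio from -0.56 to 0.11 (without high fat diet replicate 3 and 1).

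No pairing by replicate number was seen: correlations of same-numbered samples ran from -0.319 to 0.149, and those of other samples between groups from -0.277 to 0.281. With the replicate number as a block, 30 fragments, 10 family sums, 7 length sums and 6 ratios were called for SalB against high fat diet. Depth left 536 of the 636 fragments untested, and 3 libraries per group limit every test.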

Other observations

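Tails of the same 3′ ends were mostly complete. Among exact nuclear 3′ reads that ended at the A of position 76 or at the C of position 75 or 74, 85.4 ± 1.52% in the normal diet libraries, 88.1 ± 0.822% in those of high fat diet and 83.7 ± 3.57% in the SalB libraries carried the whole CCA (SD, n = 3 each). Reads that ended at position 75 took 11.4%, 10.8% and 9.84% on high fat diet and 11.1%, 17.4% and 12.8% with SalB, with SalB replicate 2 the highest of the 9 libraries. Reads that ended at position 74 took 1.30%, 1.25% and 1.21%, then 2.88%, 3.05% and 1.83%, each SalB library above each high fat diet library.

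Reads of 18 bases had a mismatch pattern of their own. Of 4824 such reads with 1 mismatch, 29.5% had A59C and 9.89% had T59G, both at the first base of the read. Among 22-base reads the first base was a lesser site, with 672 of 15510 mismatch reads at T55G.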
